A study of Mus musculus with 96 samples.

Results

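Poly(I:C), a synthetic analogue of double-stranded RNA, was compared with gardiquimod, a small imidazoquinoline that activates Toll-like receptor 7, in mouse bone marrow dendritic cells at 4, 6 and 8 h of stimulation. The arrays compared were those titled Pic or Grd at these hours, 6 for each ligand, which made 12 of the 96 arrays of the series. The labels give the ligands by these short names, which were read as poly(I:C) and gardiquimod from knowledge of the study. The series followed primary dendritic cells stimulated with 5 ligands over 9 times from 0.5 to 24 h on one-colour Affymetrix arrays. Each ligand had 2 arrays at each of the 3 hours used here, and unstimulated cells had 1. The labels used here give no strain, dose or animal number, so it is not known whether the strengths of the stimuli were matched. On the array plate Pic lay in rows C and D and Grd in rows G and H, both in columns 4, 5 and 6 by hour, so that place on the plate and ligand cannot be told apart. The unstimulated arrays of these hours lay in columns 11 and 12. Nothing in the labels says that the 2 arrays of a ligand and hour came from separate cultures. The p-values below therefore reflect the spread among these arrays alone, and that spread may be technical.

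Double-stranded RNA is recognised in endosomes by Toll-like receptor 3, which signals through the adaptor TRIF to the interferon regulatory factor IRF3 and to NF-kB, and it can also be sensed in the cytosol by RIG-I-like receptors. Toll-like receptor 7 recognises single-stranded RNA and imidazoquinolines and signals through the adaptor MyD88 to NF-kB and MAP kinases, and in plasmacytoid dendritic cells to IRF7. Type I interferon made after either signal acts back on the cells through its receptor and induces a large group of antiviral genes. The comparison asks how responses to ligands of 2 RNA-sensing receptors with different adaptors differ.

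The values are intensities with a floor of 20, below which no lower signal was recorded. Where every array of a ligand was at 20, the level there is only bounded from above and the difference is written as at least a stated fold. Such a gene was tested only because of its arrays with the other ligand. Its arrays at 20 show no spread, so its p-value does not measure the spread with both ligands and is not printed. Per array, 33.63% to 34.13% of probe sets were at the floor and the median intensity was 52.1 to 54.75. Pairs of arrays of the same ligand and hour had a Pearson correlation of 0.9964 to 0.9977 over genes. Dendritic cell markers were uneven in level, with Cd74 averaging 7451 with Pic and 7653 with Grd and Itgax 3287 and 4158. Flt3 averaged 29.95 and 34.18 and Zbtb46 50.07 and 54.45, nearer the floor, and Cd209a was at the floor on all 12 arrays. None of 10 such markers was called by the rule below, and Cd209a was not tested. All 5 B cell and all 5 mast cell markers on the array were at the floor. In bulk RNA, fewer cells of a type and less RNA per cell cannot be told apart.

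Of 9655 genes and unnamed probe sets tested, 234 (2.42%) were higher with Pic and 191 (1.98%) were higher with Grd. A gene was called when limma's Benjamini-Hochberg adjusted p was under 0.05 and the log2 difference of intensity + 1 was at least 1 in size, that is 2-fold. The 14 largest differences each way were taken only from named genes whose Pic and Grd arrays did not overlap. Their separation was therefore a condition of choice. Among the 14 largest differences toward Pic were the interferon genes Ifna2, Ifnb1 and Ifna4 and the CXCR3 ligand genes Cxcl11 and Cxcl9. Among the 14 toward Grd were the neutrophil-attracting chemokine genes Cxcl1, Cxcl5 and Cxcl2 and the cytokine genes Il12b, Il12a, Il1b and Il6. By the adjusted p alone, 2561 items (26.5%) were higher with Pic and 2877 (29.8%) with Grd, so that most of them differed by less than 2-fold. All 6 Pic arrays lay above all 6 Grd arrays for 1119 items (11.6%), and the reverse held for 1262 (13.1%). Among the called items, the arrays did not overlap for 218 of 234 and for 182 of 191. The median log2 difference of all tested items was -0.01. Differences of at least 4-fold were found for 26 items toward Pic and 34 toward Grd, and of at least 8-fold for 6 and 13. A difference below is always Pic minus Grd on the log2 scale unless another comparison is named, so that a negative value means more signal with Grd, and an error after ± is an SE beside a log2 difference (6 arrays per ligand) and an SD beside a mean intensity (n = 6).

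**Figure D1:**
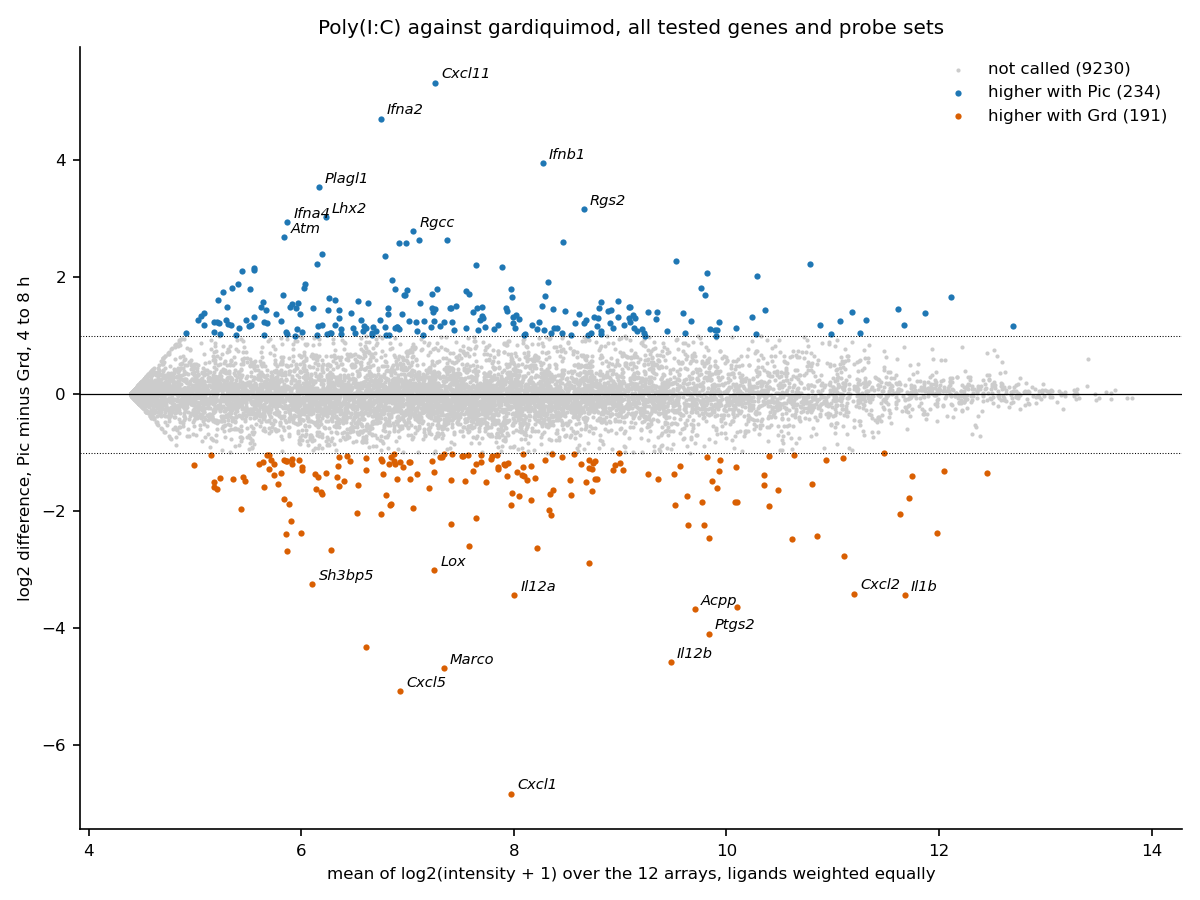
Each point is a tested gene or probe set, with its mean log2(intensity + 1) on the x axis and the fitted log2 difference, Pic minus Grd at 4 to 8 h, on the y axis; dotted lines mark 2-fold, and genes at the floor with 1 ligand are drawn at the fitted value. Cxcl11 stands highest at 5.33 and Cxcl1 lowest at -6.83, with 234 points called toward Pic and 191 toward Grd.

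The levels in unstimulated cells show in which direction each ligand moved a gene. Among 9774 items tested with the 3 unstimulated arrays of the same hours, Pic was higher for 525 (5.37%) and lower for 312 (3.19%). Grd was higher for 474 (4.85%) and lower for 456 (4.67%). Both comparisons use the same 3 unstimulated arrays. The median log2 difference of all items from unstimulated cells was -0.14 with Pic and -0.09 with Grd. The share of Pic's calls that were higher was 62.7% as deposited and 73.9% (618 higher, 218 lower) after every array was centred on its own median. Pic was lower for 467 items without the unstimulated array of 4 h, 274 without that of 6 h and 263 without that of 8 h. Of the 234 items higher with Pic than Grd, 123 were above unstimulated cells with Pic, 34 with Grd, and 65 were below unstimulated cells with Grd. Of the 191 higher with Grd, 141 were above unstimulated cells with Grd and 39 with Pic, while 14 were below with Pic and 0 with Grd.

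**Figure D2:**
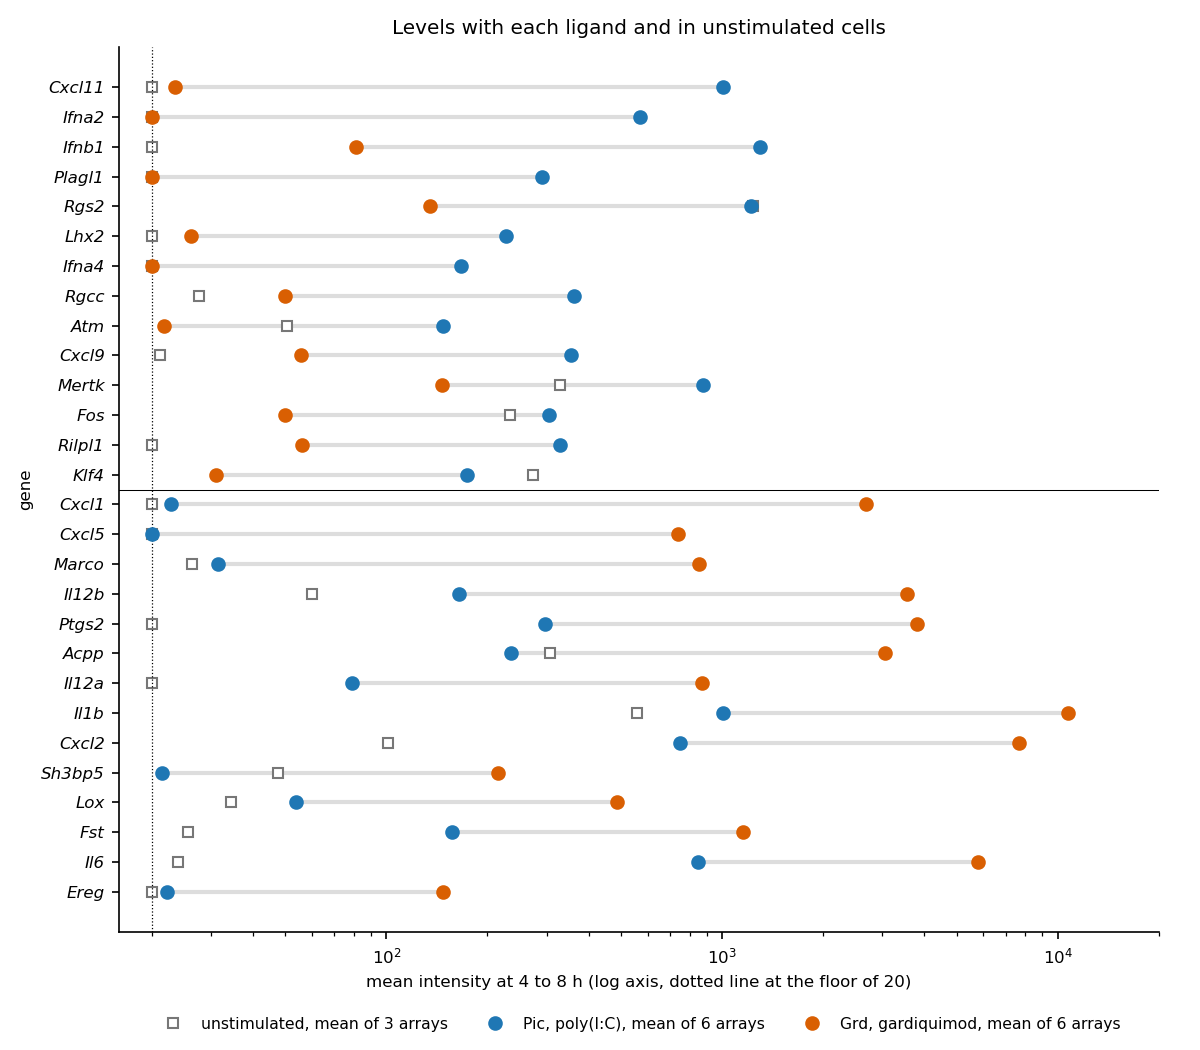
Mean intensity on a log axis of the 14 genes with the largest differences toward Pic and the 14 toward Grd, for 6 Pic arrays, 6 Grd arrays and 3 unstimulated arrays at 4 to 8 h. Rgs2 and Fos have unstimulated levels near those with Pic, whereas the unstimulated levels of Cxcl1, Cxcl5 and Ereg are at the floor of 20.

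Transcripts of 4 type I interferon genes were higher with Pic. Ifnb1, which encodes interferon beta, measured 702, 719, 1525, 1468, 1667 and 1696 on the Pic arrays, listed from 4 to 8 h, and 104, 55, 96.5, 109, 49.6 and 72.7 on the Grd arrays. The naming rule required its Pic arrays to lie above its Grd arrays, and the 3 unstimulated arrays were at 20. The log2 difference was 3.95 ± 0.23 (limma adjusted p = 6.8e-08). Ifnb1 was at least 60.7-fold above unstimulated cells with Pic and at least 3.88-fold with Grd. Ifna2, an interferon alpha gene, measured 392, 389.9, 677, 811, 585 and 564 with Pic and was at the floor on all 6 Grd arrays and all 3 unstimulated arrays, a difference of at least 27.5-fold. Ifna4 ran from 116 to 233 with Pic (median 152) with every Grd array at the floor, at least 8.05-fold. Ifna5 ran from 33.3 to 66.9 with Pic with every Grd array at the floor, at least 2.59-fold. Its call was lost on the scale of log2(intensity + 16), where the difference was 0.92. The interferon alpha genes are close copies of each other, and the probe sets named for Ifna2, Ifna4 and Ifna5 may pick up several of them.

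These 4 genes were the called members among 18 tested genes of type I interferon and its receptor signalling, beside 2.42% of all items called toward Pic. The other 14 were not called, and the median log2 difference of the list was 0.48, also with genes at the floor with 1 ligand set at their bound. There were 5 such genes, Ifna2, Ifna4 and Ifna5 among them. Irf7, a regulatory factor that amplifies interferon alpha transcription, averaged 3324 ± 565 with Pic and 1981 ± 467 with Grd, and its difference of 0.76 ± 0.05 was under 2-fold. Markers of plasmacytoid dendritic cells, which are known for making abundant interferon, gave a summed intensity of 1770 to 2242 with Pic and 1324 to 1694 with Grd. Most of this sum was Irf8, at 1626 with Pic and 1245 with Grd, which was not called. Spib averaged 23.8 with Pic and 23.1 with Grd, Pacsin1 27.0 and 20.3, and Ccr9 39.6 and 40.7. Of 8 such markers 1 was called, the transcription factor gene Tcf4, at 282 against 130, while Ly6d, Klk1 and Cox6a2 were at the floor on all 12 arrays. Their part in the interferon result was not tested.

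The 250 bases before the start site are shown for these 3 interferon genes because their windows hold one of the motifs below. Of the 14 genes with the largest differences toward Pic, 13 had a window, 4 of these held the interferon or NF-kB motif (Cxcl9 is the other) and 9, among them those of Plagl1, Rgs2 and Lhx2, held neither. They are taken from RefSeq on assembly GRCm38.p6 and printed 5′ to 3′ on the gene's strand. Capitals mark matches to the core of the interferon-stimulated response element, GAAANNGAA, in Ifna2 and Ifna4, and to the NF-kB motif GGANTTTCC, on either strand, in Ifnb1. The windows lie at chr4:88683780-88684029 on the minus strand for Ifna2, at chr4:88522795-88523044 on the minus strand for Ifnb1, and at chr4:88841566-88841815 on the plus strand for Ifna4.
Ifna2: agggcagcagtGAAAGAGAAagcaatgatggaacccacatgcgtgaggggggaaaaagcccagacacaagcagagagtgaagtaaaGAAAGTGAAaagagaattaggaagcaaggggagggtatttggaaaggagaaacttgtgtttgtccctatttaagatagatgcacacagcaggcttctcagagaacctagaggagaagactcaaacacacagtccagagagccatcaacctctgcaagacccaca
Ifnb1: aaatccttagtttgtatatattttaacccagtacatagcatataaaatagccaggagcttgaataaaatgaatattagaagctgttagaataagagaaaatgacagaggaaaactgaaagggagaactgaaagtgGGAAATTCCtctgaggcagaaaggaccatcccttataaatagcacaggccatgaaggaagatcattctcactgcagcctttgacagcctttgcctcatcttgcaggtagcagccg
Ifna4: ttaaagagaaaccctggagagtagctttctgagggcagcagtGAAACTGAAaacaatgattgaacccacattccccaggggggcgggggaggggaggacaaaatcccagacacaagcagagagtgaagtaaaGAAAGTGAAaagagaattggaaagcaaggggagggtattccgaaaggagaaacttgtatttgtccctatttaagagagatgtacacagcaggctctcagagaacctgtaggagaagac

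In Ifna2 the core begins at -239 and -164 from the start site, and in Ifna4 at -208 and -118. The match in Ifnb1 begins at -115. A match describes the letters and is not evidence of binding.

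Chemokines that act on the receptor CXCR3 of activated T cells and natural killer cells were also higher with Pic. Cxcl11 measured 609, 695, 1154, 1245, 1214 and 1132 on the Pic arrays and 23.4, 20, 30.5, 26.8, 20 and 20.2 on the Grd arrays. Grd stayed near the floor, at which all 3 unstimulated arrays lay. The difference was 5.33 ± 0.13 (limma adjusted p = 5.5e-11). Its size depends on Grd values next to the floor, and with log2(intensity + 16) it was 4.65. A second, dim probe set of Cxcl11 averaged 25.9 with Pic, was at the floor with Grd and was not called. Cxcl9 ran from 222 to 454 with Pic (median 367) and from 39.2 to 69.1 with Grd (median 61.0), a difference of 2.63 ± 0.08. Cxcl10 was high with both ligands, from 7238 to 8869 with Pic and from 1245 to 4281 with Grd. It rose with both above unstimulated cells, by 7.34 and 5.68 on the log2 scale, and was higher with Pic by 1.66 ± 0.17 (limma adjusted p = 5.5e-06).

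Of 16 CXCR3 ligand and CC chemokines, 4 were called toward Pic and 1 toward Grd, beside 2.42% and 1.98% of all items. Toward Pic were the 3 CXCR3 ligands and the monocyte-attracting Ccl12, which ran from 85.7 to 154 with Pic and from 20 to 44.1 with Grd, a difference of 1.81 ± 0.09. Toward Grd was Ccl3, a chemokine of inflamed tissue, with 1304 to 2096 with Pic (median 1920.0) and 8573 to 10112 with Grd (median 9136), a difference of -2.37 ± 0.07 (limma adjusted p = 3.5e-10). The other 11 were not called, among them Ccl5, which was already at 8425 to 9471 in unstimulated cells and averaged 11310 with Pic and 10303 with Grd. The median of the list was -0.02.

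Antiviral effector genes induced by interferon were mostly higher with Pic by less than 2-fold. Of 51 tested, 7 were called toward Pic and 0 toward Grd, beside 2.42% and 1.98% of all items. The median difference was 0.55, against -0.01 over all items. By the adjusted p alone, 46 of the 51 were higher with Pic and 2 with Grd, beside 26.5% and 29.8% of all items. Isg20, a 3′ to 5′ exonuclease, measured 804, 833, 2022, 1988, 2741 and 2564 with Pic and 189.5, 169, 604, 671, 847 and 888 with Grd, listed from 4 to 8 h. The ranges overlapped across hours, but Pic was higher at each hour, and the fitted difference was 1.82 ± 0.09 (limma adjusted p = 1.4e-08). Oasl1, an oligoadenylate synthetase-like protein, had a median of 5374 with Pic and 2229 with Grd, a difference of 1.45 ± 0.10. Cmpk2, a mitochondrial nucleotide kinase, differed by 1.41 ± 0.16, Ifit3, an antiviral protein of the Ifit family, by 1.39 ± 0.19, and Mx2, a dynamin-like GTPase, by 1.24 ± 0.10. Ddx60, a helicase-like antiviral protein, and Ifit2 were the other called members, at 1.27 and 1.16. The call for Ifit3 was lost without the 4 h arrays, where the difference was 0.96. Ifit1, which binds viral RNA lacking host cap methylation, averaged 7679 ± 796 with Pic and 4620 ± 1072 with Grd, and its difference of 0.76 ± 0.10 was under 2-fold.

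The 7 called antiviral genes were above unstimulated cells with both ligands. On the log2 scale Mx2 rose by 3.60 with Pic and 2.36 with Grd, and Ifit1 by 3.22 and 2.46. The unstimulated level rests on 1 array per hour and varied. Ifit1 was at 819, 1251 and 539 in unstimulated cells at 4, 6 and 8 h, and Ifit3 at 623, 1397 and 439.5. Of the 51 genes, 33 were called above unstimulated cells with Pic and 21 with Grd, counts that share their unstimulated arrays.

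The interferon-induced GTPases, which act on vacuoles that hold intracellular pathogens, had a median of 0.98. Of 13 tested, 4 were called toward Pic and 0 toward Grd, beside 2.42% and 1.98% of all items. By the adjusted p alone all 13 were higher with Pic, beside 26.5% of all items. After centring of every array 7 were called, as also without the second Pic array of 6 h or the first Grd array of 4 h. Iigp1 ran from 3101 to 4650.1 with Pic (median 3811) and from 349.6 to 1573 with Grd (median 930.1), with no overlap and a difference of 2.22 ± 0.17 (limma adjusted p = 5.5e-07). Gbp8 ran from 361 to 508 with Pic and from 75.6 to 104 with Grd, a difference of 2.21 ± 0.07. It rose above unstimulated cells with Pic, by 1.46, whereas with Grd it was at -0.74 and not called. Tgtp1 differed by 1.19 ± 0.10, a call lost without the 4 h arrays, where it was 0.96. Mx2 is also in this list.

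The lists of cytosolic nucleic acid sensors and of regulatory factors of interferon genes each held 2 called members. Over all items, 2.42% were called toward Pic and 1.98% toward Grd. Of 13 sensors, 2 were called toward Pic and 0 toward Grd (median 0.56), and 11 were higher with Pic by the adjusted p alone. These 2 were Oasl1 and Ifih1, which encodes the double-stranded RNA sensor MDA5 and had 2976 to 4651 with Pic against 1003 to 2234 with Grd, a difference of 1.28 ± 0.08. Of 14 interferon regulatory factors and STATs, 2 were called toward Pic and 0 toward Grd (median 0.38). Irf1, an activator of interferon-response genes, ran from 1672 to 2193 with Pic and from 674 to 839.8 with Grd, a difference of 1.32 ± 0.06 (limma adjusted p = 1.3e-08). Irf2, which binds the same sites as Irf1, differed by 1.12 ± 0.07.

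Among 18 Toll-like receptor, adaptor and signalling kinase genes, 2 were higher with Pic and 1 with Grd (median 0.04), beside 2.42% and 1.98% of all items. Tlr3, a receptor of poly(I:C), ran from 349 to 655 with Pic and from 51.2 to 161 with Grd, against 45.8 to 74 in unstimulated cells. The ligands did not overlap, and the difference was 2.18 ± 0.11 (limma adjusted p = 1.4e-08). Tlr7, the receptor of gardiquimod, averaged 399.9 ± 89.9 with Pic and 382 ± 39.4 with Grd, and its difference of 0.04 ± 0.08 did not pass the test (limma adjusted p = 0.70) and was below 0 in 3 of the alternatives. Peli1, a ubiquitin ligase of the Toll-like receptor pathways, had a median of 2559 with Pic and 606 with Grd, a difference of 2.01 ± 0.07, with 297, 336 and 276 in unstimulated cells. The adaptor gene Myd88 averaged 1732 with Pic and 1347 with Grd, a difference of 0.36 ± 0.04 that was under 2-fold. Cd14, a coreceptor that hands ligands to several Toll-like receptors, was the gene toward Grd, with 1563 to 2011 with Pic and 5689 to 6663 with Grd, a difference of -1.78 ± 0.07. It rose with Grd by 1.62 above unstimulated cells and was at -0.16 with Pic, not called.

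**Figure D3:**
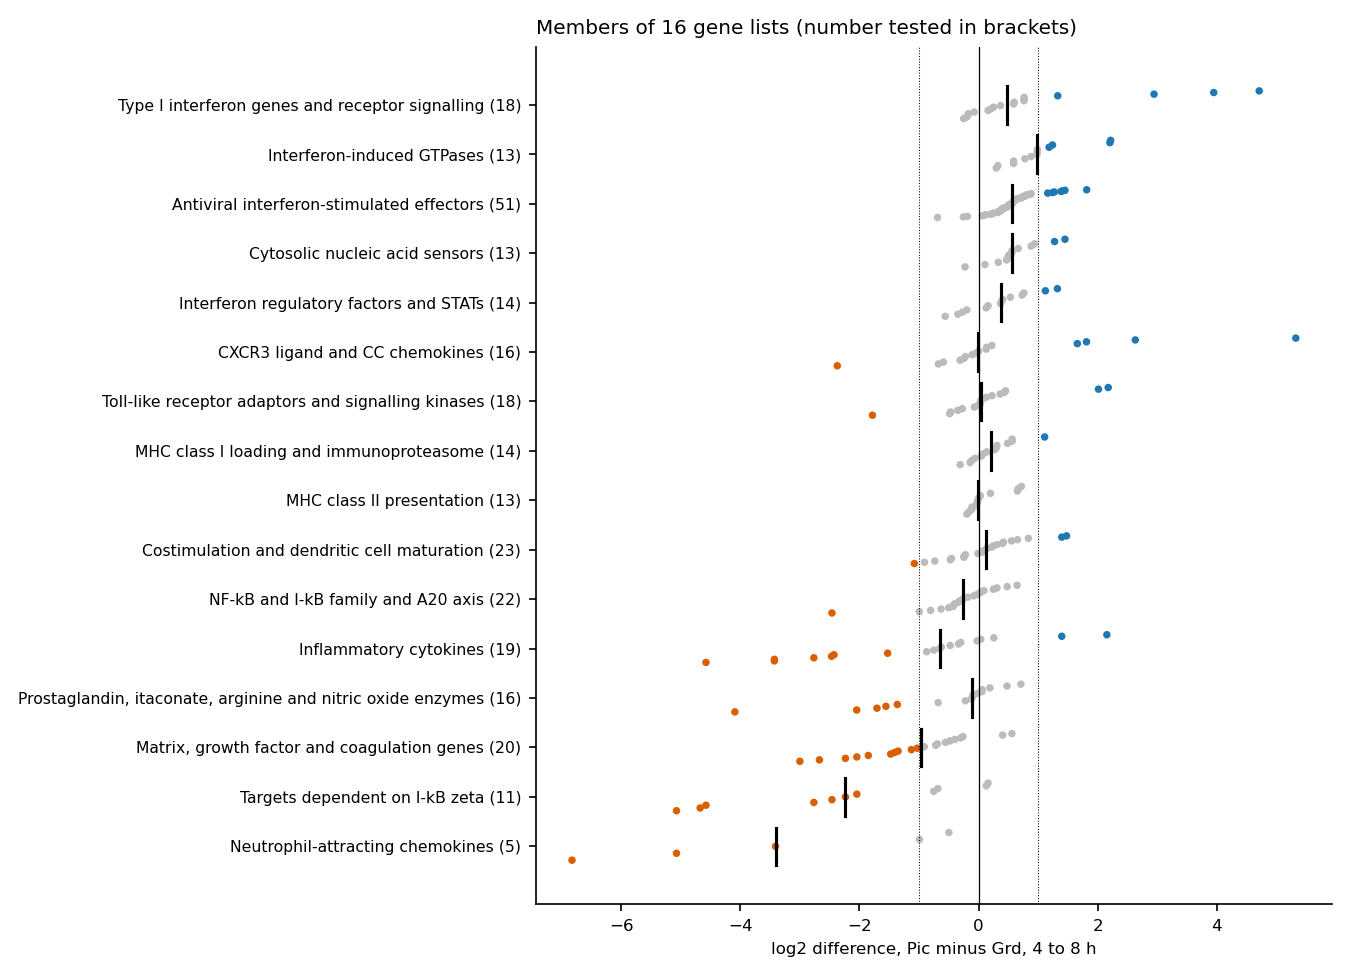
Fitted log2 difference, Pic minus Grd at 4 to 8 h, of each tested member of 16 gene lists, with blue for members called toward Pic, orange for those called toward Grd, grey for the rest and a black bar at the list's median; dotted lines mark 2-fold. The medians run from 0.98 for the interferon-induced GTPases to -3.41 for the neutrophil-attracting chemokines.

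Several regulators with large differences toward Pic were at or near the floor in unstimulated cells. Plagl1, a zinc finger transcription factor, ran from 104 to 526 with Pic (median 259) and was at the floor on all Grd and unstimulated arrays, at least 12.2-fold. Lhx2, a LIM homeobox factor, ran from 126 to 349.9 with Pic and from 20 to 34.4 with Grd, a difference of 3.02 ± 0.12. Rgcc, a regulator of the cell cycle, ran from 241 to 488 with Pic and from 45.1 to 54.1 with Grd, a difference of 2.79 ± 0.12. The naming rule required the lowest Pic array of these 3 genes to lie above the highest Grd array. Rilpl1, which encodes a Rab-binding protein, ran from 193 to 529.7 and from 23.1 to 80.7 and differed by 2.58 ± 0.12 in its brighter probe set, while a dimmer probe set gave 0.62 and was not called.

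The interleukin 15 pair was also higher with Pic. Il15, a growth factor of natural killer and memory T cells that is presented on its receptor chain, ran from 852 to 1231 with Pic and from 288 to 506 with Grd, a difference of 1.40 ± 0.05 (limma adjusted p = 2e-09). The receptor chain Il15ra ran from 636 to 902 and from 209 to 308, a difference of 1.48 ± 0.05. Tnfsf10, the death ligand TRAIL, had 66.6 to 139.8 with Pic and 20 to 27.5 with Grd, a difference of 2.15 ± 0.12. All 3 were above unstimulated cells with Pic and not called with Grd.

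A second kind of difference toward Pic was in genes that fell with Grd. Rgs2, which shortens signalling by G-protein-coupled receptors, measured 1256, 1151, 1426, 1276, 1074 and 1117 with Pic, 124, 125, 154, 159, 117 and 127 with Grd, and 806, 1867 and 1032 in unstimulated cells. Pic was within the range of unstimulated cells and Grd far below it. The difference was 3.17 ± 0.05 (limma adjusted p = 8.5e-13). Klf4, a Krueppel-like factor of monocyte differentiation, ran from 109 to 215 with Pic and from 25.9 to 37.1 with Grd, against 221 to 320.1 in unstimulated cells. It fell by 3.09 on the log2 scale with Grd, was at -0.69 with Pic, not called, and differed between the ligands by 2.39 ± 0.14. Fos, a subunit of the AP-1 factor, ran from 198 to 408 with Pic and from 32.9 to 67.8 with Grd, a difference of 2.59 ± 0.20, and fell with Grd by 2.19.

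Mertk and Atm rose with Pic and fell with Grd. Mertk, a receptor for the uptake of apoptotic cells that restrains inflammatory signalling, measured 655, 766, 1061, 1039.7, 868 and 890.4 with Pic and 106, 99.4, 178, 173, 164 and 156 with Grd, with 289.7, 423 and 272 in unstimulated cells. The unstimulated arrays lay between the 2 ligands at each hour. Mertk rose with Pic by 1.43 and fell by 1.17 with Grd, and the difference was 2.60 ± 0.06 (limma adjusted p = 5.1e-11). Atm, a kinase of the DNA damage response, ran from 98.8 to 191.5 with Pic and from 20 to 27.2 with Grd. It rose by 1.49 and fell by 1.19, a difference of 2.68 ± 0.11. The sizes of its fall and of this difference depend on Grd values at or next to the floor.

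Pycard and Ripk3 were not called against unstimulated cells with Pic and fell with Grd. Pycard, the inflammasome adaptor ASC, averaged 3324 ± 225 with Pic and 1405 ± 205 with Grd, a difference of 1.25 ± 0.09. Ripk3, a kinase of necroptosis, had medians of 208 and 90.5, a difference of 1.23 ± 0.12. The call for Pycard was lost with the mean of its probe sets (0.76), the second of which lay near the floor, and that for Ripk3 without the 8 h arrays (0.99). Of 17 apoptosis and pyroptosis genes, these 2 and Tnfsf10 were higher with Pic and 1 with Grd (median 0.56), beside 2.42% and 1.98% of all items. The gene toward Grd was the inflammasome sensor Nlrp3, at 263 ± 34.0 with Pic and 601 ± 55.2 with Grd, a difference of -1.19 ± 0.09.

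Neutrophil-attracting chemokine genes were higher with Grd. Cxcl1 measured 20, 20, 20.3, 20.4, 27.8 and 28.7 on the Pic arrays and 2952, 2479.8, 2520, 2892, 2638 and 2608 on the Grd arrays. The Pic arrays were at or just above the floor, where all unstimulated arrays of these hours lay, and Grd was at least 134-fold above unstimulated cells. The difference was -6.83 ± 0.09 (limma adjusted p = 2.8e-13). Its size depends on Pic values at or next to the floor, and with log2(intensity + 16) it was -6.12. Cxcl5 was at the floor on all 6 Pic arrays and ran from 456 to 1114 with Grd (median 693), at least 35.3-fold. Cxcl2 ran from 530.1 to 1039 with Pic (median 702) and from 7329 to 7979 with Grd (median 7680.4), a difference of -3.41 ± 0.13. It also rose with Pic above unstimulated cells, by 2.94 on the log2 scale, where Cxcl1 and Cxcl5 were not called. These were the 3 called members of 5 tested, beside 1.98% of all items called toward Grd. The other 2 were the platelet chemokine genes Ppbp at -0.99 and Pf4 at -0.50. The summed intensity of 8 neutrophil markers was 6195 to 7658 with Grd and 7936 to 10445 with Pic. Of these 8 markers, 0 were called in either direction. Their part in the chemokine result was not tested.

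The windows before the start sites of Cxcl1, Cxcl2 and Il6 each held a match to the NF-kB motif GGANTTTCC, printed here in capitals. Of the 14 genes with the largest differences toward Grd, 10 had a window, and the other 7, those of Marco, Il12b, Ptgs2, Acpp, Il12a, Il1b and Sh3bp5, held no match to it. They lie on the plus strand of GRCm38.p6 at chr5:90890995-90891244 for Cxcl1, chr5:90903649-90903898 for Cxcl2 and chr5:30012864-30013113 for Il6, and are taken from RefSeq.
Cxcl1: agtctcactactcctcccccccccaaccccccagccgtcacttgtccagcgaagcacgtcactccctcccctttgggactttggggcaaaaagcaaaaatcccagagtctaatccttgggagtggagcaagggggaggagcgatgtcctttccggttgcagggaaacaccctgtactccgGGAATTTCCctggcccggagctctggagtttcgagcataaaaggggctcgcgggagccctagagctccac
Cxcl2: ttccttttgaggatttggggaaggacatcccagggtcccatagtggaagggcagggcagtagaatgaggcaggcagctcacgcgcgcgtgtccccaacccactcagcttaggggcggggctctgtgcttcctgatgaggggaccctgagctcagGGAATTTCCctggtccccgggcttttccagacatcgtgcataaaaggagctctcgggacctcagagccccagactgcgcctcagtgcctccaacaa
Il6: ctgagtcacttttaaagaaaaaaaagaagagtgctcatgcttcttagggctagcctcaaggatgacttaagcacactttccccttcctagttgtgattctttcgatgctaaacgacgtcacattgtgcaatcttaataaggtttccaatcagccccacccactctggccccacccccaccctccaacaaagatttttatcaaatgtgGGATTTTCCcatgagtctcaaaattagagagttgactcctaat

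The matches begin at -70, -96 and -43 from the start sites of Cxcl1, Cxcl2 and Il6. The matched bases were GGAATTTCC in both Cxcl1 and Cxcl2 and GGATTTTCC in Il6.

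Inflammatory cytokines were higher with Grd. Of 19 tested, 7 were called toward Grd and 2 toward Pic, Tnfsf10 and Il15, beside 1.98% and 2.42% of all items. The median was -0.65. By the adjusted p alone, 13 of the 19 were higher with Grd and 3 with Pic, beside 29.8% and 26.5% of all items. Il12b, the shared p40 subunit of interleukins 12 and 23, measured 76.6, 72.8, 143, 166, 264 and 265 with Pic and 3304, 2159.5, 3682, 4111, 3973 and 4158 with Grd. The ligands were far apart at each hour, with a difference of -4.58 ± 0.17 (limma adjusted p = 1.6e-09). Il12a, the p35 subunit of interleukin 12, ran from 60.5 to 115 with Pic and from 551 to 1123 with Grd, a difference of -3.43 ± 0.11. Both subunits rose above unstimulated cells with both ligands, Il12b by 1.39 with Pic and 5.97 with Grd. Il1b, the precursor of interleukin 1 beta, ran from 852 to 1231 with Pic (median 972) and from 10297 to 11098 with Grd (median 10776), a difference of -3.43 ± 0.06 (limma adjusted p = 3e-12). It was not called above unstimulated cells with Pic, at 0.88 ± 0.13.

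Il6, Tnf and Il1a rose with both ligands and further with Grd. Il6, a cytokine of the acute phase, ran from 743 to 915 with Pic and from 5126 to 6328 with Grd, a difference of -2.77 ± 0.06 (limma adjusted p = 2.6e-11), and was above unstimulated cells by 5.12 and 7.88. Tnf, the tumour necrosis factor gene, had a median of 963 with Pic and 4381 with Grd, a difference of -2.43 ± 0.18. Il1a, which encodes interleukin 1 alpha, had medians of 662 and 3697, a difference of -2.47 ± 0.07. Lta, the lymphotoxin alpha gene, was the remaining called member, at -1.53. Csf3, the granulocyte growth factor, was at the floor with Pic and at 28.9 to 44.4 with Grd, and Il23a, the p19 subunit of interleukin 23, was at the floor with Pic and reached at most 31.7 with Grd. Neither was called. Il10 was at or too near the floor to be tested, and Ticam1 and Csf2 were not analysed here.

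Nfkbiz encodes I-kB zeta, a nuclear partner of NF-kB that is required for a delayed set of inflammatory genes. It ran from 299.8 to 472 with Pic (median 388) and from 1743 to 2787 with Grd (median 2134), a difference of -2.46 ± 0.13 (limma adjusted p = 2.8e-08). It rose with both ligands, by 2.70 and 5.16. Of 11 tested genes listed as dependent on I-kB zeta, Nfkbiz itself included, 7 were higher with Grd and 0 with Pic, beside 1.98% and 2.42% of all items. The median was -2.23. The 7 were Cxcl5, Marco, Il12b, Il6, Nfkbiz, Lcn2 and Saa3. Lcn2, which binds bacterial iron carriers, ran from 359 to 490.3 with Pic, near the 320.2 to 359.7 of unstimulated cells, and from 1428 to 2366 with Grd, a difference of -2.23 ± 0.13. Saa3, an acute-phase protein, differed by -2.04 ± 0.07 and was not called above unstimulated cells with Pic, at 0.35. Of 22 genes of the NF-kB subunits, their inhibitors and the A20 axis, Nfkbiz alone was called, and the median was -0.27. By the adjusted p alone, 13 of the 22 were higher with Grd and 4 with Pic, beside 29.8% and 26.5% of all items.

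Among 19 SOCS and other feedback regulators, Socs3 and Zc3h12a were higher with Grd and Rgs2 and Zfp36l2 with Pic (median 0.23), beside 1.98% and 2.42% of all items. Socs3, an inhibitor of cytokine receptor signalling, ran from 84.2 to 151 with Pic and from 684 to 892 with Grd, a difference of -2.63 ± 0.10. Zc3h12a, the ribonuclease Regnase-1 that degrades Il6 and Il12b messages, ran from 59.4 to 94.6 and from 444 to 538, a difference of -2.59 ± 0.07 (limma adjusted p = 2.4e-10). With Pic it was at 0.36 ± 0.13 from unstimulated cells and not called. Zfp36l2, which binds AU-rich messages, differed by 1.13 ± 0.13, a call lost without the 6 h arrays (0.86).

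Among 22 AP-1, EGR and MAP kinase phosphatase genes, Fos, Egr1 and Batf2 were higher with Pic and Batf and Ier3 with Grd (median -0.06), beside 2.42% and 1.98% of all items. Batf, an AP-1 partner, ran from 39.4 to 70.8 with Pic and from 187 to 256 with Grd, with 88.6 to 111 in unstimulated cells, a difference of -1.89 ± 0.12. Ier3, an immediate early response gene, differed by -1.30 ± 0.06. Egr1, an immediate-early zinc finger factor, reached 39.2 to 56.8 with Pic and was at the floor with Grd, at least 2.49-fold, a call lost on the log2(intensity + 16) scale (0.87).

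Receptors of phagocytes divided between the ligands. Marco, a scavenger receptor for bacteria and particles, measured 32.7, 35.4, 28.2, 39.9, 26.9 and 25.7 with Pic and 596, 490.4, 979.5, 912, 1026 and 1123 with Grd. Pic stayed near the unstimulated values of 20 to 38.3, and the difference was -4.67 ± 0.18 (limma adjusted p = 2.1e-09). Of 22 scavenger, lectin and phagocytic receptors, Mertk, Fcgr1 and Fcgr4 were higher with Pic and Marco and Fcgr2b with Grd (median -0.12), beside 2.42% and 1.98% of all items. Fcgr1, the activating high-affinity receptor for immunoglobulin G, averaged 2886 ± 548 with Pic and 1327 ± 484 with Grd, a difference of 1.19 ± 0.09. Fcgr2b, the inhibitory receptor, averaged 2152 ± 385 and 5571 ± 182, a difference of -1.39 ± 0.08. Of 8 macrophage and monocyte markers, Mertk and Fcgr1 were called toward Pic and Adgre1 toward Grd, at 620 against 1578, and the summed intensity of the 8 was 18740 to 20099 with Pic and 16632 to 17650 with Grd. Their part in these results was not tested.

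Prostaglandin enzymes were higher with Grd. Ptgs2, the inducible cyclooxygenase, ran from 64.1 to 607 with Pic (median 290.1) and from 2897 to 4481 with Grd (median 3843), with unstimulated cells at the floor. The ligands did not overlap, as the naming rule required, and the difference was -4.09 ± 0.35 (limma adjusted p = 1.3e-06). Ptges, the prostaglandin E synthase that acts after it, ran from 33.1 to 96.4 and from 170.2 to 277, a difference of -2.05 ± 0.17. Arg2, a mitochondrial arginase, differed by -1.71 ± 0.22, Slc7a2, a carrier of cationic amino acids, by -1.56 ± 0.08, and Slc7a11, the cystine carrier, by -1.36 ± 0.08. These 5 were the called members among 16 prostaglandin, itaconate, arginine and nitric oxide genes, with 0 called toward Pic and a median of -0.11. Over all items, 1.98% were called toward Grd and 2.42% toward Pic.

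Outside the lists, Acpp, an acid phosphatase, ran from 197 to 306 with Pic and from 1966 to 3918 with Grd, a difference of -3.68 ± 0.10. Sh3bp5, which binds the kinase JNK, ran from 20 to 24.8 with Pic and from 146 to 271 with Grd, with 41.4 to 59 in unstimulated cells. It fell by 1.10 with Pic, a size limited by the floor, and rose by 2.15 with Grd.

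Matrix, growth factor and coagulation genes had 10 of 20 tested members called toward Grd and 0 toward Pic, beside 1.98% and 2.42% of all items. The median was -0.97. By the adjusted p alone, 17 of the 20 were higher with Grd and 2 with Pic, beside 29.8% and 26.5% of all items. Lox, which crosslinks collagen, ran from 35.5 to 70.1 with Pic and from 200.1 to 848 with Grd, a difference of -3.00 ± 0.20. Ereg, a ligand of the epidermal growth factor receptor, ran from 20 to 28.2 and from 129.5 to 168, a difference of -2.67 ± 0.09. Inhba, the activin A subunit, averaged 3768 and 8996 against 73.6 to 351 in unstimulated cells, and differed by -1.35 ± 0.18. Lcn2 and Saa3 also belong to this list, and the other called members were Serpinb2, Mmp13, Edn1, Tgm2 and Pdgfb, at -1.85, -1.48, -1.41, -1.13 and -1.03. The call for Edn1 was lost when the arrays of 4 h (-0.77) or those of 6 h were left out (-1.34). Fst, the activin-binding protein follistatin, was not in the list and ran from 113 to 200.3 with Pic and from 888 to 1469 with Grd, a difference of -2.89 ± 0.17.

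Costimulation and antigen presentation genes are set beside the shares over all items, 2.42% called toward Pic and 1.98% toward Grd. Of 23 costimulation and maturation genes, Il15 and Il15ra were called toward Pic and Cd70, a ligand of CD27, toward Grd (median 0.12). Cd70, at -1.08, lost its call in 5 of 27 alternatives, among them leaving out the 4 h arrays (-0.64). Cd40, the receptor through which T cells license dendritic cells, ran from 1188 to 2200.2 with Pic and from 1581 to 2303 with Grd, against 87.5 to 119 in unstimulated cells. It rose with both, by 4.04 and 4.28, and its difference of -0.24 ± 0.08 was under 2-fold. Cd80 averaged 345 ± 66.1 and 308 ± 11.1, a difference of 0.14 ± 0.09, although another, dim probe set gave 1.08 and was called. Cd86 averaged 1837 ± 533 and 1134 ± 189.6, a difference of 0.66 ± 0.08. Of 13 MHC class II presentation genes, limma called 0 in either direction (median -0.01). By the adjusted p alone 4 were higher with Pic and 3 with Grd, beside 26.5% and 29.8% of all items. By the unadjusted p alone the counts were also 4 and 3. Of 14 genes of MHC class I loading and the immunoproteasome, Tapbpl, a peptide editor, was called toward Pic at 1.11 ± 0.06 (median 0.20).

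Some induced genes did not pass the test between the ligands. Ch25h, which makes 25-hydroxycholesterol, averaged 1633 ± 345 with Pic and 1617 ± 536 with Grd against 29.6 to 40.4 in unstimulated cells, a difference of 0.06 ± 0.08 (limma adjusted p = 0.54). Acod1, the itaconate-producing enzyme, averaged 8646 ± 865 and 8282 ± 384, a difference of 0.06 ± 0.05 (limma adjusted p = 0.30). Nos2, the inducible nitric oxide synthase, reached at most 28.8 with Pic and was at the floor with Grd. A missed threshold does not show that the levels were equal.

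Metabolic and proliferation lists are also set beside the shares over all items, 2.42% called toward Pic and 1.98% toward Grd. Of 17 sterol and fatty acid genes, Sqle, the squalene epoxidase, was called toward Grd at -1.20 ± 0.08, and the median was -0.45. Sqle fell by 1.79 with Pic from unstimulated cells and was at -0.60 with Grd, not called. Of these 17 genes, 8 were called below unstimulated cells with Pic and 2 with Grd, with shared unstimulated arrays. Of 15 glycolysis genes, Hk1 and Pdk1 were called toward Pic (median -0.08). Hk1, at 1.03 ± 0.07, lost its call in 5 of 27 alternatives and Pdk1, at 1.18 ± 0.11, in 2, and a dim second probe set of Pdk1 gave 0.05. Of 29 cell cycle and replication genes, the cyclins Ccne1 and Ccnd1 were called toward Pic, at 1.49 ± 0.17 and 1.13 ± 0.11, and the thymidylate synthase Tyms toward Grd, at -1.32 ± 0.05 (median 0.12).

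Of 20 endoplasmic reticulum and amino acid stress genes, Asns, the asparagine synthetase, was called toward Pic at 1.08 ± 0.06, a call lost on the log2(intensity + 16) scale (0.94). Slc7a11, Gadd45a and Herpud1 were called toward Grd, and the median was -0.05. Over all items, 2.42% were called toward Pic and 1.98% toward Grd. Without the second Pic array of 4 h the differences of Gadd45a and Herpud1 were just under 2-fold, and without the 4 h arrays they were -0.63 and -0.80. Neither was called in those cases. Gadd45a, a gene of growth arrest and DNA damage, also lost its call without the 6 h arrays.

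Promoter letters were counted over the genes called each way. Windows of 250 bases before the start site were found for 5825 of the tested named genes, and motifs were searched on both strands. The core GAAANNGAA occurred in 7.16% of 27025 promoter windows and in 6.56% of those of tested genes. It occurred in 30 of 148 genes higher with Pic (20.27%) and in 6 of 117 higher with Grd (5.13%). Among 76 genes higher with Pic and also above unstimulated cells with Pic it occurred in 22 (28.95%), and among 43 higher with Pic and below unstimulated cells with Grd in 5 (11.63%). The NF-kB letters GGANTTTCC occurred in 1.05% of all windows and 1.24% of tested ones, in 5 of 148 higher with Pic (3.38%) and in 6 of 117 higher with Grd (5.13%). They occurred in 4 (5.26%) of the 76 genes higher with Pic and above unstimulated cells with Pic. Of the 43 higher with Pic and below unstimulated cells with Grd, 1 held them (2.33%). The AP-1 letters TGANTCA occurred in 6.87% of all windows and 4.58% of tested ones, in 8 of 148 (5.41%) and in 13 of 117 (11.11%). The gamma-activated letters TTCNNNGAA occurred in 7.18% of all windows and 6.03% of tested ones, in 12 of 148 (8.11%) and in 11 of 117 (9.4%). The cyclic AMP response letters TGACGTCA occurred in 1.62% of all windows and 2.73% of tested ones, in 1 of 148 and in 0 of 117. Matches to GAAANNGAA and TTCNNNGAA can share bases. These shares were not tested, and a window without a match says only that the letters are not in it.

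**Figure D4:**
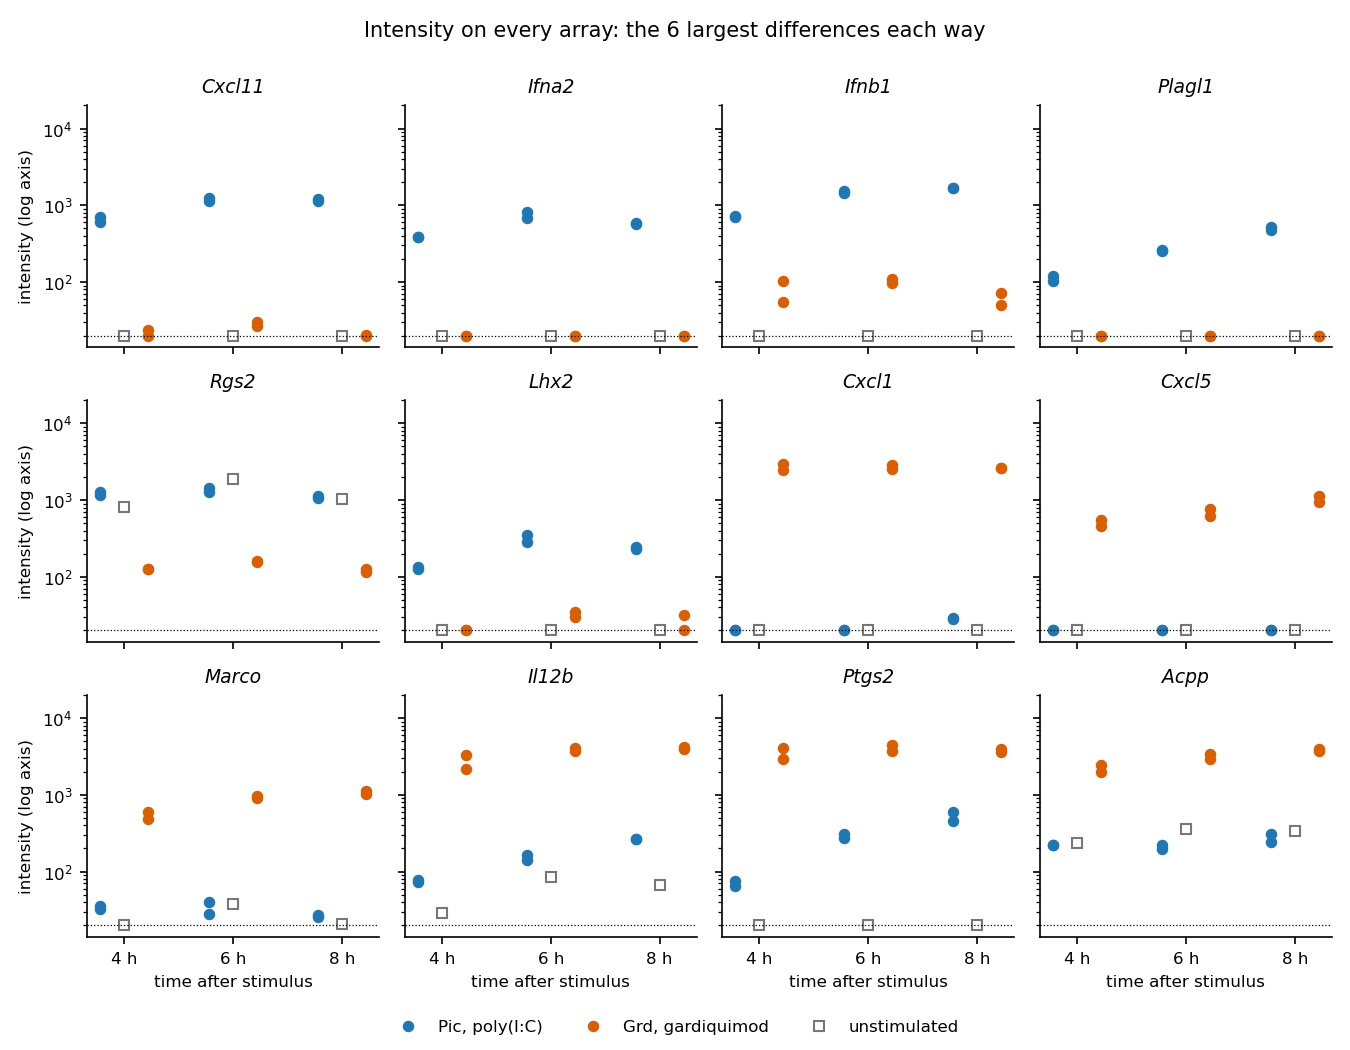
Intensity (log axis) on every Pic, Grd and unstimulated array at 4, 6 and 8 h for the 6 named genes with the largest differences toward Pic and the 6 toward Grd, with 1 point per array and a dotted line at the floor of 20. For all 12 genes the Pic and Grd arrays are apart at each hour, which the choice of genes required. For Ptgs2 and Plagl1 the Pic arrays are higher at 8 h than at 4 h.

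The difference between the ligands depended on the hour for some genes. A test of the ligand by hour interaction passed an adjusted p of 0.05 for 1002 items (10.4%), among them 71 of the 234 called toward Pic and 88 of the 191 called toward Grd. It was 458 and 537 without the first and second Grd array of 8 h, 571 and 480 without the first and second Pic array of 4 h, and 607 without the first Pic array of 8 h. All 234 and 189 of the 191 had the same sign at all 3 hours. Ptgs2 had a difference of -5.61 at 4 h, -3.81 at 6 h and -2.85 at 8 h, as Pic went from 75 and 64.1 to 458 and 607 while Grd stayed between 2897 and 4481. Tnf narrowed from -3.15 to -1.71 and Il12b from -5.14 to -3.94. Edn1, which encodes the vasoconstrictor endothelin 1, went from -2.70 at 4 h to 0.02 at 8 h, with Pic then at 106 and 80.1 and Grd at 87.6 and 94.6. Marco and Lox widened instead, Marco from -3.95 to -5.30 and Lox from -2.38 to -3.74.

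On the Pic side Ifnb1 widened from 3.21 at 4 h to 4.78 at 8 h. Plagl1 went on the Pic arrays from 120.3 and 104 at 4 h to 477 and 526 at 8 h, with Grd at the floor. Hhex, a homeobox factor, narrowed from 2.49 at 4 h to 0.28 at 8 h, when Pic had gone from 458 and 452 to 128 and 127. Its call over the 3 hours was lost without the 4 h arrays (0.96). Ifit3 narrowed from 2.23 to 0.93, with Grd at 1447 and 1064 at 4 h and 2990.2 and 3009 at 8 h.

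Few items were called before 4 h, and many were called up to 24 h. At 0.5 to 2 h, 1 of 9647 items (0.0104%) was higher with Pic and 16 (0.166%) with Grd, and 25 to 28 were higher with Grd when any of the 4 arrays of 0.5 h was left out. At 12 to 24 h, 321 of 9695 (3.31%) were higher with Pic and 349 (3.6%) with Grd. Of the 234 items called toward Pic at 4 to 8 h, 1 was called the same way early and 144 late. Of the 191 called toward Grd, 13 were called early and 136 late, and 1 was called the opposite way late. Tests of the change of the difference itself called 233 items (2.32%) moving toward Pic and 129 (1.28%) toward Grd from the early to the middle hours, and 76 (0.757%) and 136 (1.35%) from the middle to the late hours.

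Genes already higher with Grd at 0.5 to 2 h included Cxcl1 (-3.58), Ptgs2 (-2.85), Nfkbiz (-2.45), Il6 (-2.35) and Tnf (-2.22). Marco and Acpp were not called early, at -0.22 and -0.59, and were at -6.76 and -4.33 late. Cxcl10 went from 0.44 early to 4.47 late. With Grd it was at 4231 and 4281 at 6 h and 48.6 and 52.1 at 16 h, and with Pic at 4462 and 4585 at 16 h. Ifnb1 with Pic was at 292 and 315 at 2 h, 1667 and 1696 at 8 h and 35.3 and 35.6 at 24 h.

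**Figure D5:**
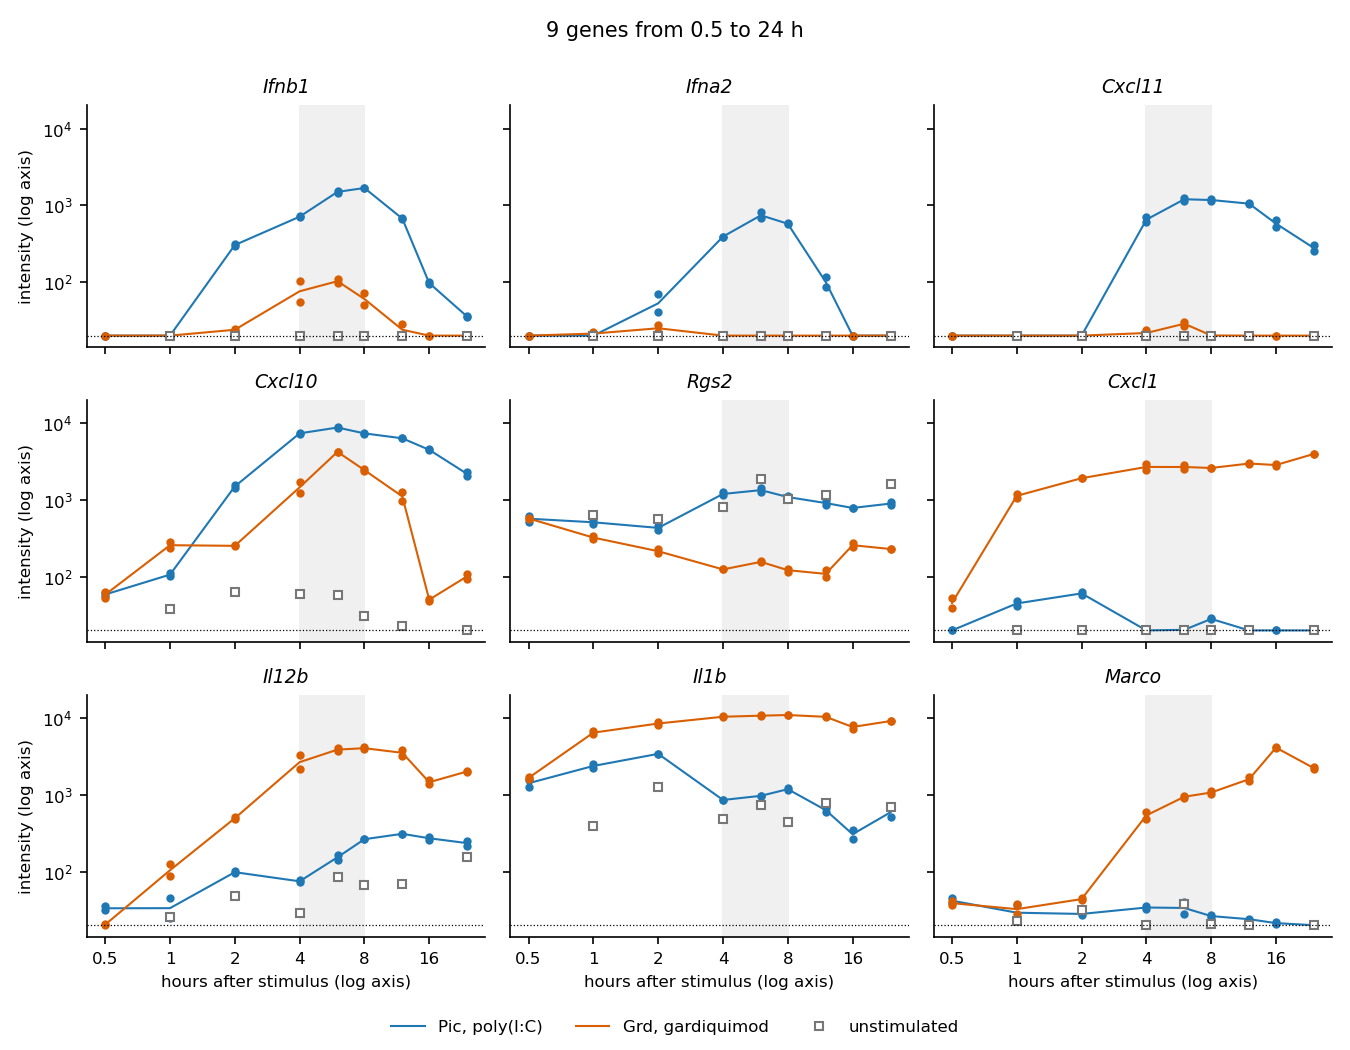
Intensity on log axes from 0.5 to 24 h for 9 genes, with points for arrays, lines through the geometric mean of 2 arrays and open squares for unstimulated arrays; grey marks 4 to 8 h and the dotted line the floor of 20. Cxcl1 is at 1064 and 1214 with Grd at 1 h and never above 63.6 with Pic, whereas Ifnb1 with Pic peaks at 1696 and is at 35.3 and 35.6 by 24 h.

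The other 3 ligands at 4 to 8 h are given as values only. They are named Lps, Pam and Cpg in the labels and read as lipopolysaccharide, a lipopeptide and CpG oligonucleotide. Cxcl1 averaged 1951 ± 200.1 with Lps, 2803 ± 270.1 with Pam and 1980.3 ± 161 with Cpg (SD, n = 6 each), all far above Pic. Il1b averaged 9654, 10312 and 9371 and Acpp 2993, 2719 and 2923, nearer to Grd than to Pic. Ifna4 was at the floor of 20 on every array of the 3 and Ifna2 on all but 1, a Cpg array of 4 h at 21.1. Cxcl11 averaged 424 ± 91.9 with Lps and 57.0 ± 24.1 with Cpg and was at the floor with Pam, and Plagl1 averaged 189.8 ± 109 with Lps and was at the floor with the others. Rgs2 averaged 309 ± 114, 74.7 ± 7.77 and 306 ± 63.2 with Lps, Pam and Cpg, below the 1217 ± 129 with Pic.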

How the data were processed

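The deposited table gives 1 intensity per probe set and array, for 18858 probe sets. Per the submitters' processing notes the arrays were processed with RMA. Its version, the return to a linear scale and the floor of 20 are not given in the sources used here. No scanner files were used. Gene names came from the platform annotation: 15044 probe sets had 1 symbol, 257 several and 3557 none listed. The probe set with the highest mean stood for a gene. Items above the floor on at least 2 of the arrays fitted were tested.

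Log2(intensity + 1) was fitted with limma 3.58.1 in R 4.3.3, with ligand and hour as terms on the 12 arrays, eBayes and Benjamini-Hochberg adjustment over all items. Unstimulated arrays entered a fit of their own with 15 arrays, and the early and late hours were fitted likewise. Simulated data of 9655 items gave 0 of 50 calls at a true log2 difference of 0.5 and 50 of 50 at 1.5, 2.5 and 4, with 0 false calls. The 2-fold threshold itself all but excludes calls at 0.5. Changes were added only to items well above the floor, and noise was drawn independently for each array. The simulation therefore checks the code and does not measure false calls in the real arrays. Genes were named by rule: the 14 largest non-overlapping differences each way, the 5 with the largest change with hour each way, up to 4 called members per list, and a panel of genes of these pathways. The arrays compared, the lists and the panel were chosen with earlier results of these data known. Alternatives changed the pseudocount, scaling, filter, probe set rule, model, threshold and arrays included.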

Additional observations from a re-analysis of the deposited data

Results flagged for a closer look

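For 58 of 98 genes taken up by the naming rule the difference between Pic and Grd itself changed over 4 to 8 h, by limma's test of the ligand by hour interaction (adjusted p under 0.05). Over all 9655 tested items, 1002 (10.4%) passed this test. The rule took up some of the 98 genes by this same test, so their count is partly fixed by the choice of genes. The 21 whose difference changed by at least 1 on the log2 scale from 4 to 8 h are given here, and the other 37 changed by less. Values are the log2 difference at 8 h minus that at 4 h, where a positive value means a move toward Pic. Among cytokine, prostaglandin and growth factor genes that were higher with Grd, the gap narrowed for Ptgs2 by 2.75, Edn1 by 2.72, Tnf by 1.45, Fst by 1.31 and Il12b by 1.20. It also narrowed for the stress genes Gadd45a (2.25) and Herpud1 (1.35), for the ephrin receptor Epha4 (1.94), for the CD27 ligand Cd70 (1.82) and for the arginase Arg2 (1.51). It widened for the scavenger receptor Marco (-1.35), the collagen crosslinker Lox (-1.36), the chemokine Cxcl5 (-1.03) and the B cell coreceptor Cd72 (-1.72).

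Among genes that were higher with Pic, the gap widened for the zinc finger factor Plagl1 (2.16), for Ifnb1 (1.57) and for the cyclin Ccne1 (1.21). It narrowed for the homeobox factor Hhex (-2.21), the clock-related Timeless (-1.37), Fos (-1.31) and Ifit3 (-1.31). Cxcl5 lay at the floor on every Pic array and Plagl1 on every Grd array, so the changes of these 2 genes come from the other ligand alone.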

How the results depend on the processing

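Of 85 named genes called between Pic and Grd, 69 kept direction and call in all 27 alternatives run, 16 lost the call in at least 1, and 0 reversed. The counts of 234 and 191 became 179 and 154 with log2(intensity + 16), 253 and 184 with centred arrays, 240 and 191 with quantile normalization, 213 and 184 with the mean of probe sets, and 741 and 617 with a 1.5-fold threshold. With single arrays left out they ran from 229 to 249 and from 189 to 201. With log2(intensity + 16), 185 items in place of 312 were lower with Pic than unstimulated. At 0.5 to 2 h the count toward Pic was 1 to 2 and toward Grd 13 to 28 with single arrays left out, and 2 toward Pic with a mean for each ligand and hour, an alternative chosen after seeing the data. The interaction count of 1002 ran from 458 to 907 with single arrays left out and was 842 with the replicate number added. Tlr7, Ch25h and Cd80, none of them called, changed sign. Tlr7 was -0.086 with the mean of probe sets, -0.11 without the 8 h arrays and -0.00056 to 0.083 with single arrays left out. Ch25h was -0.069 without the 4 h arrays and -0.019 to 0.091 with single arrays left out, and Cd80 was -0.023 without the 8 h arrays. The cause of these changes was not tested.

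The replicate block, with hour and replicate number as 6 pairs, gave 234 and 191, and all 425 calls were kept. The design is balanced, so this block leaves every log2 difference unchanged and can alter a call only through its p. The same holds for the fits without hour, with a mean for each ligand and hour, and over all 96 arrays. Both other filters and eBayes with trend and robust settings also leave every log2 difference unchanged. All of these are among the alternatives, and each gave 234 and 191. None of them could have reversed a gene. Deviations of same-numbered arrays correlated at -0.08, -0.16 and -0.08 at 4, 6 and 8 h, so the numbers were not taken to pair the arrays. Signal limits what can be seen: 33.6% to 34.1% of probe sets per array lay at the floor, where differences are only bounded.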

Other observations

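The genes of these paragraphs were chosen after their values were seen. They stand for no gene group, and the list of sterol and fatty acid synthesis genes had a median of -0.45, toward Grd. Ppargc1b, Cyp27a1, Cpt1a, Mgll and Plin2 were higher with Pic, and all but Plin2 fell below unstimulated cells with Grd. Ppargc1b, a coactivator of mitochondrial genes, ran from 218 to 269 with Pic and from 36.5 to 69.2 with Grd, against 361 to 549 in unstimulated cells, a difference of 2.37 ± 0.14 (limma adjusted p = 7.2e-08). It fell by 3.26 with Grd and was at -0.89 with Pic, not called. Cyp27a1, a sterol 27-hydroxylase, ran from 127 to 197 and from 29.1 to 36.4, a difference of 2.23 ± 0.08. Cpt1a, which brings fatty acids into mitochondria, differed by 1.17 ± 0.06 and Mgll, a monoacylglycerol lipase, by 1.40 ± 0.08. Plin2, a lipid droplet coat protein, differed by 1.05 ± 0.05 and was not called below unstimulated cells with Grd.

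The surface receptor genes Cd300lf, C3ar1, Gpr65 and Cd200r1 were also higher with Pic. Cd300lf, an immunoreceptor that binds phospholipids, ran from 1296 to 1896 with Pic and from 251 to 428 with Grd, with 939.7 to 1198 in unstimulated cells, a difference of 2.28 ± 0.09. C3ar1, the complement C3a receptor, differed by 1.30 ± 0.12, the proton-sensing Gpr65 by 1.32 ± 0.12 and the inhibitory receptor Cd200r1 by 1.08 ± 0.07. These 4 fell with Grd and were not called against unstimulated cells with Pic. Tlr1, Trem1 and Trem3 were higher with Grd. Trem1, which amplifies inflammatory signals, was at 20 to 25.3 with Pic and at 72.2 to 102 with Grd, a difference of -1.97 ± 0.08, and Tlr1, a partner of Toll-like receptor 2, ran from 206 to 374 and from 546 to 923, a difference of -1.46 ± 0.07.

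Gsr, Txnrd1 and Me1 were also higher with Grd. Gsr, the glutathione reductase, averaged 168 with Pic and 436 with Grd, a difference of -1.39 ± 0.10, Txnrd1, the thioredoxin reductase, differed by -1.05 ± 0.05, and the malic enzyme Me1 by -1.14 ± 0.08. The iron and zinc carrier Slc39a14 rose with Grd by 1.78, whereas Slc40a1, the iron exporter ferroportin, fell by 1.82 with Pic and was at -0.19 with Grd, not called.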
